A study of Drosophila melanogaster with 22 samples.

Results

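Small nucleolar RNA (snoRNA) genes were followed through the anterior ovarioles of ageing Drosophila melanogaster females. The members were all genes whose symbol in the deposited annotation starts with "snoRNA:", which gave 273 of the 17478 annotated genes. Of these, 237 had at least 1 read in the 22 libraries and 36 had none. Each gene was classed by its name: 109 carry Psi and a ribosomal RNA position, 98 carry Me and a position, 17 are orphans (Or) with no assigned target, and 49 have other names, among them U3 and U14.

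snoRNAs are short non-coding RNAs that stay in the nucleolus, where ribosomal RNA is made. Box H/ACA snoRNAs base-pair with ribosomal RNA and direct the conversion of uridine to pseudouridine, whereas box C/D snoRNAs direct 2'-O-methylation, and a few, such as U3, are needed for cleavage of the ribosomal RNA precursor. Most are cut out of introns of host genes that make ribosomal proteins or other parts of the translation machinery, or of non-coding host genes named Uhg (U snoRNA host gene) in the fly. Nurse cells of the ovary make large amounts of ribosomes for the egg. Mature snoRNAs carry no long polyA tail, and the libraries here were selected for polyA RNA, so the levels below are those of snoRNA sequence recovered after that selection.

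All females were w1118 virgins, a white-eyed laboratory strain, with no other allele or treatment. Each sample pooled 30 to 50 ovarioles holding the germarium and young egg chambers, and 200 ng of total RNA made a stranded library. Ages were 1, 2, 3, 4, 5, 6, 7 and 8 days after eclosion. Egg chambers up to stage 8 were kept from the females of days 1 to 4, but only up to stage 7 from those of days 5 to 8. The effects of age and of the dissection therefore cannot be told apart between these series. Days 1 and 4 had 2 libraries each and the other days 3, labelled as independent biological replicates.

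The libraries fell into 3 groups by age series and by the ERCC control RNA, a set of 96 synthetic transcripts added during preparation. In 3 libraries (the first replicate of day 2 and the second replicates of days 3 and 4) only 31, 19 and 52 ERCC counts were found, and they are called young libraries without spike-in. The other 7 libraries of days 1 to 4 held at least 25577 ERCC counts and are the young libraries with spike-in. Of these, day 4 replicate 1 stood apart with 910875 ERCC counts, or 43.5% of its gene and ERCC counts together, beside a group median of 3.7%. All 12 libraries of days 5 to 8 had spike-in. The groups also differed in depth, with 1146915 to 2573634 gene counts in the young libraries with spike-in, 3648865 to 9781870 in those without, and 2975582 to 4634327 on days 5 to 8. In CPM (reads scaled to a common library size), germline markers summed to 4383 to 4790 in young libraries with spike-in, 4061 to 4722 in those without and 4405 to 5882 on days 5 to 8. Follicle cell and niche markers summed to 419 to 620 CPM, 330 to 430 CPM and 504 to 659 CPM in the same order, so that the last 2 groups did not overlap. Of the 5 follicle cell and niche markers, tj and Fas3 were lower in young libraries without spike-in than in those with it and higher on days 5 to 8 than in those without (edgeR adjusted p under 0.05). Late eggshell genes summed to 409 to 1593 CPM in the 10 young libraries and 34.9 to 264 CPM on days 5 to 8. Muscle genes summed to 179 to 1190 CPM in young libraries with spike-in, 178 to 243 CPM in those without and 92.4 to 319 CPM on days 5 to 8. Genes of haemocytes, fat body and yolk summed to a median of 606, 380 and 119 CPM in the same order. The share of mitochondrially encoded genes was 0.536 to 1.02% in young libraries with spike-in, 1.17 to 2.72% in those without and 0.588 to 1.51% on days 5 to 8. Depth, the mitochondrial share and some of these marker sums therefore differed between some groups compared below, while the germline sums of all 3 groups overlapped. The part of depth, markers and mitochondrial share in the snoRNA results was not tested. In pooled tissue, fewer cells that make an RNA and less of it per cell cannot be told apart.

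The summed snoRNA level was highest in the young libraries with spike-in, lower on days 5 to 8 and lowest in the young libraries without spike-in, and the 3 groups did not overlap. In CPM scaled by edgeR's trimmed mean of M values (TMM), as all levels here, the sum was 1439 to 3196 CPM with a median of 2594 CPM in the 7 young libraries with spike-in. It was 181 CPM in day 2 replicate 1, 213 CPM in day 3 replicate 2 and 224 CPM in day 4 replicate 2. On days 5 to 8 it was 278 to 894 CPM, with a median of 446 CPM. The medians of young libraries with and without spike-in thus stood further apart than those of the 2 age series among libraries with spike-in. By day, the libraries with spike-in averaged 2820 ± 319 CPM on day 1 (SD, n = 2), 2234 ± 138 CPM on day 2 (n = 2) and 2318 ± 1242 CPM on day 3 (n = 2), with 2623 CPM in the single library of day 4. The later days averaged 392 ± 65.7, 453 ± 148, 628 ± 268 and 418 ± 122 CPM on days 5, 6, 7 and 8 (SD, n = 3 each). Day 7 had both the highest mean and the widest spread of these 4 days. As a share of all gene counts, snoRNA genes took between 0.0194% (95% Wilson interval 0.0186 to 0.0203%, day 2 replicate 1) and 0.327% (0.317 to 0.338%, day 3 replicate 1); such intervals cover counting error only.

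**Figure D1:**
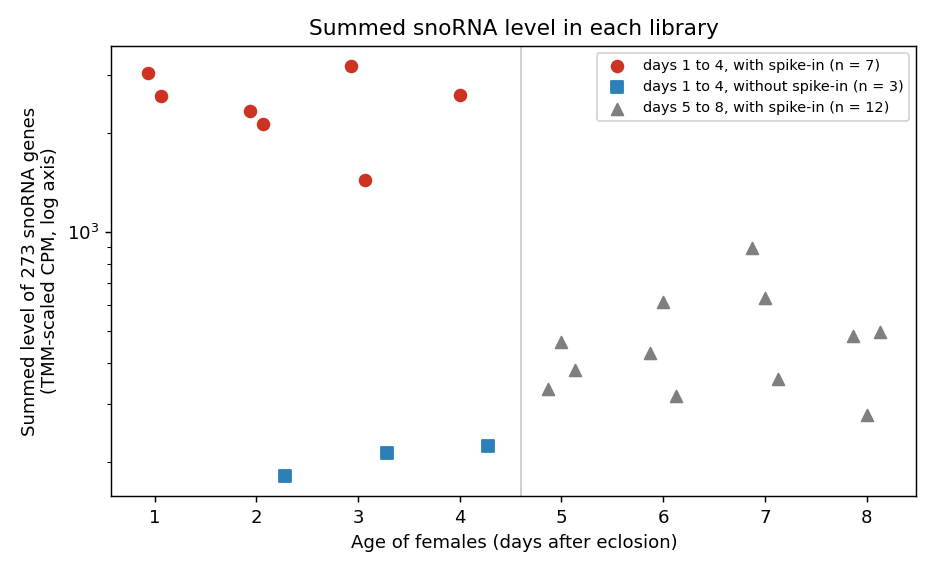
Summed level of the 273 snoRNA genes in each library (TMM-scaled CPM, log axis) by age in days; each point is 1 library, coloured by group, and the vertical line parts the 2 dissections. The 7 young libraries with spike-in lie at 1439 CPM or above, the 12 libraries of days 5 to 8 between 278 and 894 CPM, and the 3 young libraries without spike-in between 181 and 224 CPM.

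A few genes carried most of the snoRNA reads. Of 51811 reads on members, 11.7% fell on the most abundant gene, 41.8% on the top 5 and 57.9% on the 12 with the highest mean CPM. Of these 12, 10 were also among the top 12 when counts were divided by gene length. Across the 237 genes with a read, the Spearman correlation was 0.86 between the means of young libraries with spike-in and of days 5 to 8. The same measure was 0.764 between young libraries with and without spike-in. Over the 87 genes that passed the filter on low counts used below, these values were 0.807 and 0.526. Genes are not independent replicates, and the means share scaling and gene length.

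The most abundant member was snoRNA:Psi28S-291 (FBgn0065064), by name a guide for pseudouridine in 28S ribosomal RNA. It lies in an intron of RpL3, a gene for a protein of the large ribosomal subunit, on 3R from 11223571 to 11223790 on the plus strand (release 6 coordinates of the deposited annotation), and is 220 nt long. Its level was 159 to 468 CPM (median 244 CPM) in the young libraries with spike-in, 31.8, 45.6 and 48.9 CPM in those without, and 28.1 to 91.0 CPM (median 47.8 CPM) on days 5 to 8. The young libraries with spike-in were all above the rest, and the other groups overlapped. It fell on days 5 to 8 against the young libraries with spike-in by 2.51 ± 0.18 on the log2 scale (estimate ± SE, edgeR quasi-likelihood, Benjamini-Hochberg adjusted p = 2.56e-09). Against the young libraries without spike-in the log2 difference was 0.29 ± 0.26 and did not pass (edgeR adjusted p = 0.481).

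snoRNA:Or-aca5, a box H/ACA orphan, and snoRNA:Psi18S-1820, a pseudouridine guide for 18S ribosomal RNA, came next in mean level over all 22 libraries. snoRNA:Or-aca5 lies in an intron of Uhg4 on 2R from 9095685 to 9095832, plus strand. It stood at 158 to 304 CPM (median 263 CPM) in the young libraries with spike-in, at 6.78, 7.52 and 2.84 CPM in those without, and at 18.8 to 105 CPM (median 45.1 CPM) on days 5 to 8. All 3 groups were apart for this gene. It fell by 2.54 ± 0.23 (log2) on days 5 to 8 against young libraries with spike-in (edgeR adjusted p = 3.90e-08) and rose by 2.90 ± 0.42 against those without (edgeR adjusted p = 4.63e-05). snoRNA:Psi18S-1820 lies in an intron of Nop60B, which encodes the pseudouridine synthase of the H/ACA particles themselves, on 2R from 24176228 to 24176367, plus strand. Its levels were 147 to 383 CPM (median 242 CPM) in young libraries with spike-in, 5.73, 4.37 and 5.69 CPM in those without, and 24.5 to 84.2 CPM (median 51.1 CPM) on days 5 to 8. Here too no library of a group reached into another. Its log2 difference between young libraries without and with spike-in was -5.54 ± 0.44 (edgeR adjusted p = 4.25e-08).

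Of the 12 most abundant genes, 11 were higher in every young library with spike-in than in any library of days 5 to 8. In all 12 every young library without spike-in was below those with it. These patterns held for 1.2% and 10.8% of all genes tested. The 12 were ranked by mean CPM over all 22 libraries, which favours genes high in the young libraries with spike-in. The exception to the first pattern was snoRNA:Psi28S-1175c, in an intron of RpS16. It stood at 28.6 to 108 CPM (median 86.0 CPM) in young libraries with spike-in, 2.33 to 2.67 CPM in those without and 2.05 to 38.0 CPM (median 10.5 CPM) on days 5 to 8. It fell by 2.54 ± 0.32 (log2) on days 5 to 8 (edgeR adjusted p = 6.68e-06), although these groups overlapped. snoRNA:Psi18S-531, in an intron of the non-coding gene CR42491 on X, had the smallest log2 fall of the 12 on days 5 to 8, with 71.4 to 119 CPM, 20.9 to 21.7 CPM and 30.0 to 50.0 CPM in the young libraries with spike-in, those without and the libraries of days 5 to 8. Its fall on days 5 to 8 was 1.39 ± 0.12 on the log2 scale (edgeR adjusted p = 1.34e-08). snoRNA:Tudor-SN-a, at 311 nt the longest member, lies in an intron of Tudor-SN, a gene for a nuclease of small RNA particles. It stood at 46.1 to 160 CPM, 3.91 to 6.72 CPM and 5.50 to 25.6 CPM in the same order and fell by 2.86 ± 0.27 (edgeR adjusted p = 6.86e-08). snoRNA:Psi18S-176, which lies in no host gene, fell by 3.30 ± 0.30 (log2) on days 5 to 8, a call that ended when day 4 replicate 1 was left out (edgeR adjusted p = 0.216). It had the largest difference between young libraries of the 12, with 29.0 to 113 CPM against 0.954, 0.970 and 0.259 CPM. The log2 difference of libraries without against with spike-in was -6.18 ± 0.64 (edgeR adjusted p = 6.18e-07).

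**Figure D2:**
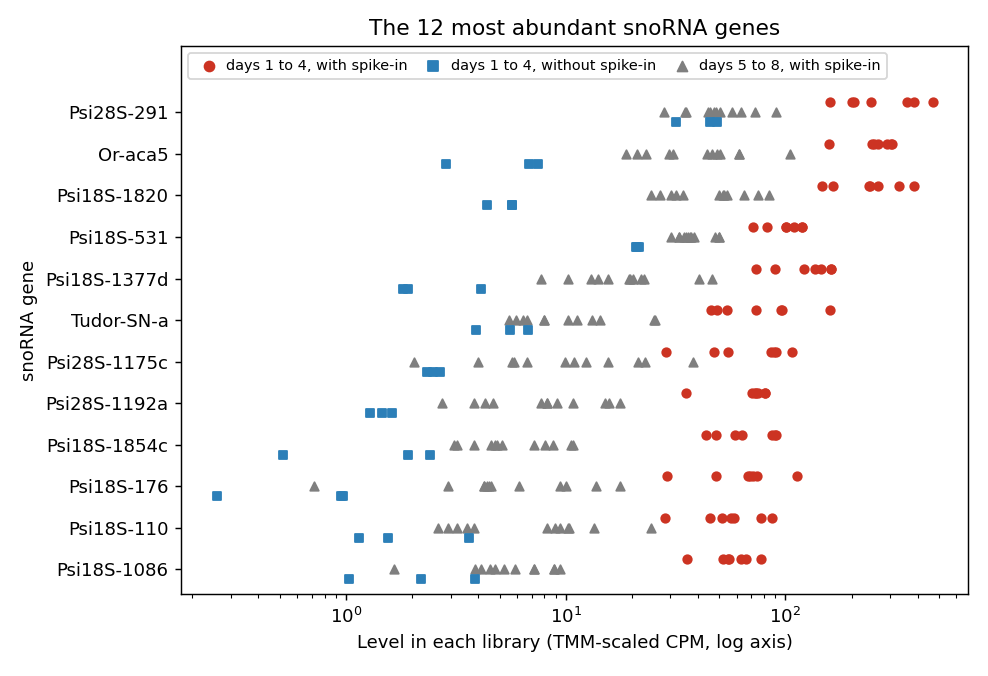
Levels of the 12 most abundant snoRNA genes in each library (TMM-scaled CPM, log axis); each point is 1 library and colours give the 3 groups. For the 3 leading genes the young libraries with spike-in lie at 147 CPM or above and those of days 5 to 8 at 105 CPM or below, and Or-aca5 and Psi18S-1820 lie at 2.84 to 7.52 CPM in the young libraries without spike-in.

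Counts of calls were taken from 1 fit over all genes. Of the 273 members, 87 passed the filter on low counts and were tested, among 8024 genes in all: 67 Psi, 4 Me, 5 Or and 11 other names. Of these 87, 43 also pass when the filter reads the libraries of days 5 to 8 alone. On days 5 to 8 against the young libraries with spike-in, 67 of 87 members fell and none rose (edgeR adjusted p under 0.05), whereas 8.04% of all genes tested fell. DESeq2 called 70 lower and none higher, and no member was higher at an unadjusted edgeR p under 0.05. The members' median log2 difference was -2.47, beside 0.01 for all genes. Among the 43 members that pass in the later libraries alone, 37 fell. In 34 of the 87 members every young library with spike-in was above every library of days 5 to 8, which held for 1.2% of all genes. Without day 4 replicate 1, the only library of day 4 with spike-in and the one with the high ERCC share, 39 members fell. That fit tested 99 members, as the filter was applied anew. With no term for library kind, where days 2 to 4 average both kinds of young library, 40 of 87 fell.

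Against the young libraries without spike-in the direction was the opposite. On days 5 to 8, 23 members rose and none fell, while 11.9% of all genes tested rose, and the members' median log2 difference was 1.13 beside -0.04 for all genes. Of the 43 members that pass in the libraries of days 5 to 8 alone, 21 rose. Days 5 to 8 are the higher group here, so that choice of members favours a rise and is no check on it. DESeq2 called 29 higher and none lower, and 1 member was lower at an unadjusted edgeR p under 0.05. In 12 members every young library without spike-in was below every library of days 5 to 8, as for 7.75% of all genes. The filter kept 87 members without day 2 replicate 1 and 103 without day 4 replicate 2. The count of risen members was 11 without day 2 replicate 1 and 13 without day 4 replicate 2. The largest rises on the log2 scale were in snoRNA:Or-aca4 (3.25 ± 0.91), snoRNA:SC35-a (3.15 ± 0.51), snoRNA:Psi18S-1820 (3.10 ± 0.40), snoRNA:Psi18S-176 (3.06 ± 0.64) and snoRNA:Psi28S-3305c (3.01 ± 0.91). Without day 2 replicate 1 the edgeR adjusted p of Or-aca4 was 0.249 and that of Psi28S-3305c 0.203, and the latter was 0.117 without day 4 replicate 2.

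Between young libraries of the same days, 61 members were lower without spike-in and none higher (edgeR adjusted p under 0.05), while 11.8% of all genes tested were lower. DESeq2 called 67 lower and none higher, and no member was higher at an unadjusted edgeR p under 0.05. The median log2 difference was -3.49 beside 0.04 for all genes. Of the 43 members that pass in the libraries of days 5 to 8 alone, 36 were lower, with a median of -3.89. In 64 of 87 members the 3 libraries without spike-in were all below the 7 with it, which held for 10.8% of all genes. The 3 comparisons share libraries pairwise, so their counts are not independent of each other. The largest differences in this comparison were those of Psi18S-176, SC35-a, Or-aca4, Psi18S-1377d and Psi18S-1820. Of these, snoRNA:SC35-a, in an intron of the splicing factor gene SC35, stood at 36.1 to 69.4 CPM (median 47.0 CPM) in young libraries with spike-in, 0.954, 0 and 0.776 CPM in those without, and 3.02 to 18.3 CPM (median 5.09 CPM) on days 5 to 8.

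The largest falls on days 5 to 8 among called members of at least 1 CPM came from genes of moderate or low level. snoRNA:Psi28S-2622, which has no host gene, fell by 4.31 ± 0.78 (edgeR adjusted p = 0.000655), but its 70 reads in all libraries make it a thinly read gene. snoRNA:Psi28S-1135c, in RpS5a, fell by 3.72 ± 0.26 (edgeR adjusted p = 1.44e-09), from a median of 55.8 CPM to one of 3.42 CPM. snoRNA:Psi28S-1180, in an intron of tou, fell by 3.62 ± 0.61 (edgeR adjusted p of 1.0 when day 4 replicate 1 is left out) and snoRNA:Psi18S-1347c, in an intron of the polyA-binding protein gene pAbp, by 3.57 ± 0.53. The only member of Psi name with a higher estimate on days 5 to 8 was snoRNA:Psi28S-1232, in RpL17, named here after its values were seen, with a log2 difference of 0.98 ± 0.81 that did not pass (edgeR adjusted p = 0.464).

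The Psi genes differed between the groups, while no difference was shown for the Me genes. The 109 Psi genes held 73.8% of snoRNA reads, and their sum was 1067 to 2456 CPM in young libraries with spike-in, 126 to 152 CPM in those without and 199 to 622 CPM on days 5 to 8. The 98 Me genes held 4.05% of the reads, and their sum was 19.5 to 45.2 CPM, 24.2 to 42.4 CPM and 16.6 to 41.5 CPM in the same order. The Me ranges of the 3 groups overlapped, whereas the Psi ranges did not overlap. The ratio of the Psi sum to the Me sum was therefore 38.3 to 99.5 in young libraries with spike-in, 3.59 to 6.16 in those without and 7.21 to 24.0 on days 5 to 8. Of the 67 Psi genes tested, 54 fell on days 5 to 8 against young libraries with spike-in, and 50 were lower in young libraries without spike-in. Among all genes tested these shares were 8.04% and 11.8%. Only 32 of the 67 pass the filter in the libraries of days 5 to 8 alone, beside 3 of the 4 Me genes tested. None of the 4 Me genes tested passed in any of the 3 comparisons with edgeR. At an unadjusted p under 0.05, edgeR had 1 of them lower in the young libraries without spike-in, and DESeq2 called 1 there.

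**Figure D3:**
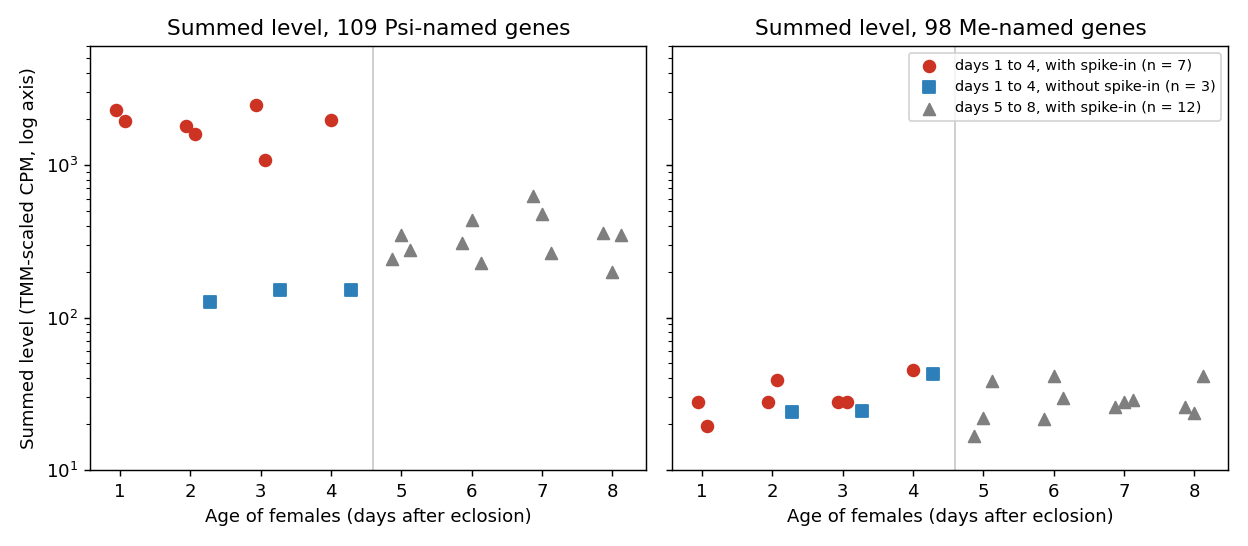
Summed level of the Psi-named genes (left) and of the Me-named genes (right) in each library (TMM-scaled CPM, shared log axis) by age in days; each point is 1 library. The Psi sums part into 3 groups at 1067 CPM and above, 199 to 622 CPM and 126 to 152 CPM, while the Me sums of all libraries lie between 16.6 and 45.2 CPM.

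The most abundant Me gene, snoRNA:Me28S-A1322, sits in an intron of Ef1alpha48D, a translation elongation factor gene. It stood at 0.852 to 13.7 CPM (median 6.45 CPM) in young libraries with spike-in, 6.49, 3.88 and 12.4 CPM in those without, and 2.97 to 13.2 CPM (median 5.56 CPM) on days 5 to 8. The groups overlapped throughout. Its log2 difference on days 5 to 8 against young libraries with spike-in was -0.09 ± 0.36 (edgeR adjusted p = 0.911). snoRNA:Me28S-G2017 shares the host RpL3 with snoRNA:Psi28S-291 and differed by -0.36 ± 0.48 (edgeR adjusted p = 0.665), where the Psi gene of that host fell by 2.51; the difference between these 2 genes was not itself tested.

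Name and gene length went together. Psi genes were 124 to 268 nt long (median 140 nt) and Me genes 46 to 135 nt (median 81 nt). The 139 members of 130 nt or more held 94.7% of the snoRNA reads and 81 of the 87 tested genes, while the 109 members under 100 nt held 5.03% and 6 tested genes. Across all 273 genes the Spearman correlation of length with mean CPM was 0.551; it was 0.456 within the Psi genes and -0.119 within the Me genes. Members under 100 nt summed to medians of 46.9, 32.3 and 31.2 CPM in young libraries with spike-in, those without and those of days 5 to 8, and members of 130 nt or more to 2555, 174 and 421 CPM. The 21 Me genes of 100 nt or more had 94 reads in all and none was tested, so class and length cannot be told apart by Me genes.

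Some long genes carry other names. snoRNA:U3:9B is a copy of U3, the box C/D snoRNA of precursor cleavage, lies on X from 10348170 to 10348337 on the plus strand and is 168 nt long. It stood at 16.2 to 32.3 CPM (median 19.6 CPM) in young libraries with spike-in, 0.763, 0.970 and 0.517 CPM in those without, and 0.270 to 7.95 CPM (median 1.43 CPM) on days 5 to 8. The first group was above both others, and it fell on days 5 to 8 by 3.24 ± 0.40 (edgeR adjusted p = 3.59e-06). The copies snoRNA:U3:54Aa and snoRNA:U3:54Ab had 13 and 12 reads in all libraries, against 379 for U3:9B, and no source used here states how reads that match several copies were counted. snoRNA:Or-CD2, a 140 nt orphan whose name marks it as box C/D, shares the host Uhg4 with Or-aca5. Its medians were 44.4, 2.58 and 9.22 CPM in the 3 groups, and it fell on days 5 to 8 by 2.35 ± 0.25 (edgeR adjusted p = 4.61e-07). U14, a short box C/D snoRNA of 18S ribosomal RNA maturation, has the copies snoRNA:U14:30Ea and snoRNA:U14:30Eb of 81 nt, which had 22 and 29 reads and were not tested.

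**Figure D4:**
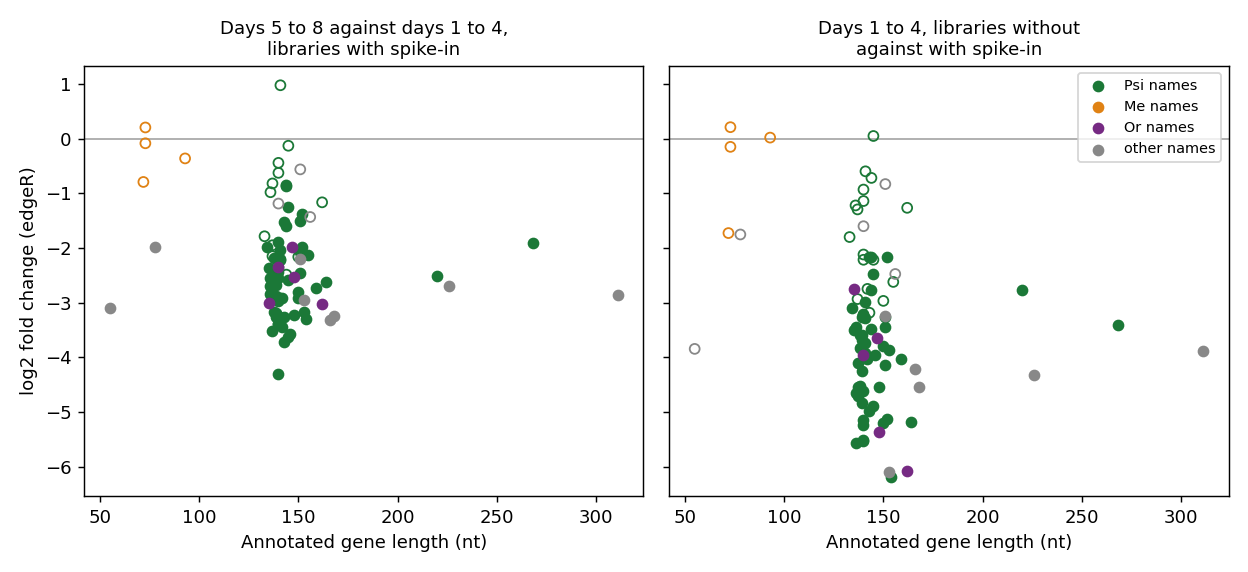
log2 fold change (edgeR) of each of the 87 tested snoRNA genes against its annotated length in nt, on days 5 to 8 against days 1 to 4 among libraries with spike-in (left) and in young libraries without against with spike-in (right). Each point is 1 gene, coloured by name class and filled where the adjusted p was under 0.05; the 67 genes that fell at left and the 61 at right are, apart from 2 at left, 130 nt or longer.

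The 2 short genes that fell on days 5 to 8 have other names: a gene of 78 nt in an intron of CG10576 (FBgn0065058, -1.98 ± 0.53, edgeR adjusted p = 0.0138) and a gene of 55 nt with no host (FBgn0065076, -3.10 ± 0.84, edgeR adjusted p = 0.0161). They are given as the exceptions and were chosen after their values were seen. Each call was kept in all but 3 of 29 alternatives, which were the same for both genes. The 78 nt gene had log2 differences of -1.69 without day 2 replicate 2, -2.002 without day 4 replicate 1 and -1.53 with no term for library kind (edgeR adjusted p of 0.0698, 0.0825 and 0.0771). The 55 nt gene had -2.66, -1.72 and -2.46 under the same settings (edgeR adjusted p of 0.161, 1.0 and 0.110). Of 17 orphans, 5 were tested. Each was called lower on days 5 to 8 and in young libraries without spike-in, beside 8.04% and 11.8% of all genes. Or-aca5 and Or-CD2 also pass the filter in the libraries of days 5 to 8 alone, whereas snoRNA:Or-aca1, snoRNA:Or-aca3 and snoRNA:Or-aca4 do not. The falls of these 3 on days 5 to 8 were not called without day 4 replicate 1 (edgeR adjusted p of 0.0619, 0.417 and 0.0519). The calls of Or-aca3 on days 5 to 8 (edgeR adjusted p = 0.0478) and of Or-aca1 between the kinds of young library (edgeR adjusted p = 0.0484) were lost in 19 of 29 and 17 of 28 alternatives. Or-aca4 had medians of 16.4, 0.243 and 1.59 CPM in young libraries with spike-in, those without and those of days 5 to 8. Of 24 tested Psi genes for 18S ribosomal RNA 21 were lower on days 5 to 8, and of 43 for 28S 33, but only 15 and 17 of those tested pass the filter in the libraries of days 5 to 8 alone.

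Host genes moved far less than their snoRNA genes, and mostly upward where they passed the test on days 5 to 8. By the deposited annotation, 240 members lie in an intron of a host on the same strand, 20 overlap a host exon and 13 have no host. There are 104 host loci, led by Arpc2 with 17 members, dom and Uhg1 with 16 each, RpS5a with 14 and Uhg5 with 11. For 78 of the tested members the host was tested too, which gave 33 hosts. On days 5 to 8 against young libraries with spike-in, 2 of these hosts fell and 16 rose (edgeR adjusted p under 0.05), with log2 differences over all 33 hosts of -0.29 to 0.64. Of all genes tested, 8.04% fell and 6.21% rose in that comparison. In 77 of the 78 pairs the snoRNA gene had the lower estimate. In young libraries without against with spike-in, 4 hosts were lower and 11 higher, with log2 differences of -0.89 to 0.96, beside 11.8% lower and 7.8% higher among all genes. The snoRNA gene was below its host in all 78 pairs. On days 5 to 8 against young libraries without spike-in, the snoRNA gene was below its host in only 10 of the 78 pairs. Of the 33 hosts, 3 were lower and 9 higher there, beside 7.91% and 11.9% of all genes. Several members share a host, so the pairs are not independent. Only 43 of the 87 tested members pass the filter in the libraries of days 5 to 8 alone. Passing through the young libraries with spike-in favours a lower estimate for the snoRNA gene in comparisons with those libraries.

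**Figure D5:**
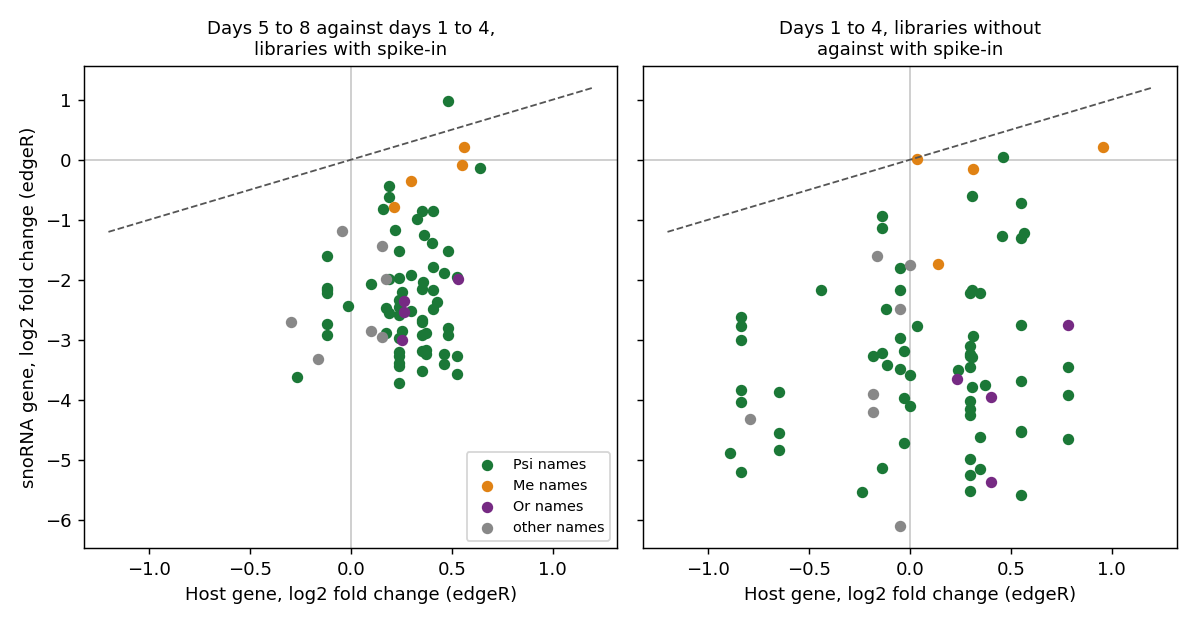
log2 fold change (edgeR) of each snoRNA gene against that of its host gene for the 78 pairs with both tested, in the same 2 comparisons; the dashed line marks equal change. Hosts lie between -0.89 and 0.96 on the log2 scale while snoRNA genes reach down to -6.10, and only 1 point of both panels lies above the line.

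RpS5a, a gene for a protein of the small subunit, is the locus with the most tested members. Its 14 snoRNA genes are all Psi guides, and 11 were tested. All 11 fell on days 5 to 8 against young libraries with spike-in, beside 8.04% of all genes tested. Of these calls, those of Psi28S-1135b and Psi28S-1135e were lost in 21 and 15 of 29 alternatives. Of the 35 tested Psi genes in ribosomal protein genes, 21 also pass the filter in the libraries of days 5 to 8 alone. The summed level of the 14 genes averaged 302, 13.1 and 37.0 CPM in young libraries with spike-in, those without and those of days 5 to 8. RpS5a itself averaged 1174 ± 105 CPM (SD, n = 7), 1406 ± 112 CPM (n = 3) and 1358 ± 133 CPM (n = 12), so that its level rose where that of its snoRNA genes fell (log2 0.24 ± 0.07, edgeR adjusted p = 0.0191). Nop60B averaged 998 ± 86.7, 864 ± 10.99 and 988 ± 139 CPM while its Psi18S-1820 averaged 253, 5.26 and 48.4 CPM. Uhg4, a non-coding host, averaged 41.4 ± 9.02, 54.3 ± 11.1 and 48.1 ± 7.13 CPM, below the 311 CPM that its 7 snoRNA genes reached in young libraries with spike-in. In Arpc2, a gene for an actin nucleation subunit with 17 Psi genes, only 1 was tested, and their sum was 5.19, 1.22 and 2.64 CPM. Uhg1 and Uhg5, which mostly hold short genes, had 15 and 11 members with a read and none tested. Their snoRNA sums were 2.11, 2.77 and 1.72 CPM and 2.57, 4.30 and 4.12 CPM in the same order of groups.

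Members with the same target position and a letter form 35 families of 113 genes, 34 of them within 1 host. In 18 of them at least 1 copy was tested. The Psi18S-1377 family, 5 genes in introns of RpS7, ranged from 52.3 CPM (snoRNA:Psi18S-1377d) to 0.809 CPM (snoRNA:Psi18S-1377c) in mean level over the 22 libraries. Of these, 4 fell on days 5 to 8 against young libraries with spike-in, beside 8.04% of all genes tested. Their falls were 2.67 (Psi18S-1377a) to 3.52 (Psi18S-1377e) on the log2 scale, and the lowest copy did not pass (-2.15, edgeR adjusted p = 0.139). The Psi28S-1135 family, 6 genes in RpS5a, ranged from 19.8 CPM (snoRNA:Psi28S-1135c) to 0.409 CPM (snoRNA:Psi28S-1135a), and the 5 that were tested fell in the same comparison. Only 21 of the 35 tested Psi genes in ribosomal protein genes pass the filter in the libraries of days 5 to 8 alone. The calls of Psi28S-1135b and Psi28S-1135e were lost in 21 and 15 of 29 alternatives. Copies may share reads, so the split within a family is uncertain.

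Within each age series none of the 87 tested members passed a test for differences between days, but with no filter on low counts, where 237 members are tested, 7 passed among days 5 to 8 and 1 among days 1 to 4. Among days 5 to 8, none of the 87 members passed the edgeR test of any difference, in which 0.0623% of all genes passed; 5 members had an unadjusted p under 0.05, as did 5.47% of all genes, and DESeq2 called none. The smallest p was that of snoRNA:Psi18S-920, in an intron of RpL10Ab (edgeR adjusted p = 0.469). It stood at 6.13, 6.94 and 6.36 CPM on day 5, at 3.85, 5.14 and 3.87 CPM on day 6, at 12.1, 11.6 and 10.2 CPM on day 7 and at 6.41, 1.43 and 4.82 CPM on day 8. The 3 libraries of day 7 were above all others. Next in order of p were snoRNA:Psi18S-1377d (edgeR adjusted p = 0.587) and snoRNA:Psi28S-2626 of the same host (edgeR adjusted p = 0.851). Among days 1 to 4, none passed either, as 0.0125% of all genes did, no member had an unadjusted p under 0.05 where 9.5% of all genes did, and DESeq2 called none.

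Few genes for proteins of the snoRNA particles passed, and in no shared direction. None of the 4 core proteins of box C/D particles passed in any of the 3 comparisons, and Fib, the methyltransferase, averaged 800, 727 and 773 CPM in young libraries with spike-in, those without and those of days 5 to 8. Of the 4 core proteins of box H/ACA particles, only CG4038 (Gar1) passed, with a fall on days 5 to 8 against young libraries with spike-in of 0.27 ± 0.08 (edgeR adjusted p = 0.0196). Of 8 assembly and Cajal body genes, coil, the fly coilin, was higher in young libraries without than with spike-in (0.73, edgeR adjusted p = 0.00935), and Nopp140 was higher and coil lower on days 5 to 8 than in young libraries without spike-in. Of 14 genes of the exosome, RNA tailing and intron debranching, Rrp4 was lower, and the polyA polymerases Trf4-1 and hrg were higher, on days 5 to 8 than in young libraries without spike-in, and none passed in the other 2 comparisons. Of all genes tested, 11.9% were higher and 7.91% lower on days 5 to 8 than in young libraries without spike-in. In young libraries without against with spike-in 7.8% were higher, and 8.04% fell on days 5 to 8 against those with it. The 30 genes of these lists passed in no larger share than all genes. These 30 genes had log2 differences of under 1 in either direction where they passed.

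All tested snRNA genes and some scaRNA genes were lower on days 5 to 8 than in young libraries with spike-in. Of 32 spliceosomal snRNA genes, 8 were tested. All 8 fell on days 5 to 8 against young libraries with spike-in, beside 8.04% of all genes. In young libraries without spike-in 5 of them were lower than in those with it, beside 11.8% of all genes. Genes can pass the filter through the young libraries with spike-in, where they are high, which favours such falls. How many snRNA, scaRNA and other short genes pass in the libraries of days 5 to 8 alone was not counted. Against young libraries without spike-in, 1 of the 8 was lower on days 5 to 8, beside 7.91% of all genes. The median log2 difference of the 8 was -0.06 there. The summed snRNA level had medians of 454, 277 and 86.6 CPM in young libraries with spike-in, those without and those of days 5 to 8. In this sum the young libraries without spike-in lay above those of days 5 to 8, against the order of the snoRNA sum. The 15 scaRNA genes, guides for snRNA modification, had medians of 42.05, 8.97 and 8.36 CPM. Of the 5 tested, 2 fell on days 5 to 8 against young libraries with spike-in (edgeR adjusted p under 0.05), beside 8.04% of all genes. In young libraries without spike-in 3 were lower than in those with it, beside 11.8% of all genes. The median log2 difference of days 5 to 8 was -1.79 against young libraries with spike-in and 1.29 against those without. None of 297 tRNA genes passed the filter on low counts. All annotated genes under 300 nt other than snoRNA genes, snRNA and scaRNA genes among them, numbered 791, of which 26 were tested. On days 5 to 8, 15 fell and 1 rose against young libraries with spike-in, beside 8.04% and 6.21% of all genes. Against those without, 6 fell and 0 rose, beside 7.91% and 11.9% of all genes. Between the kinds of young library, 8 were lower and 3 higher without spike-in, beside 11.8% and 7.8% of all genes. Of the 5 protein-coding genes among these 26, none fell and 1 rose on days 5 to 8 against young libraries with spike-in.

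Whether a member was read at all went with its place in the annotation. Of the 22 members that share bases with a same-strand exon of another gene, 21 had no read in any library and 1 had 2 reads, whereas 15 of the other 251 had none. All 6 unread members of Nop60B are of this kind. The number of members with a read was 112 to 125 in young libraries with spike-in, 139 to 175 in those without and 98 to 132 on days 5 to 8, without regard to depth. At the depth of the shallowest library the expected numbers were 104 to 119, 80.6 to 85.3 and 73.2 to 104. A count of 0 allows up to 3 reads, which is 1.17 to 2.62 CPM in young libraries with spike-in, 0.307 to 0.822 CPM in those without and 0.647 to 1.01 CPM on days 5 to 8.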

How the data were processed

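RNA of 22 libraries was sequenced from single ends as 76 nt reads. The authors deposited raw read counts per gene, and per the submitters' processing notes HISAT2 (2.0.1), HTSeq (0.6.1p1), SAMtools (0.1.2) and CASAVA (1.8.2) were used, with FlyBase annotation 6.07 deposited beside them. No source used here gives the counting mode, the strand setting or the treatment of reads with several matches, which leaves counts of like copies uncertain. Counts of 1572 transposon insertions and 96 ERCC transcripts stayed out of library sizes and tests. All 17478 gene identifiers matched a symbol in the annotation.

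edgeR 4.0.16 (R 4.3.3) fitted 1 coefficient per day and 1 for library kind (under 100 ERCC counts or not) with TMM scaling to 8024 genes kept by filterByExpr by day (minimum count 10), with 13 residual degrees of freedom; quasi-likelihood p-values were Benjamini-Hochberg adjusted over all genes with a threshold of 0.05. Comparison with the young libraries without spike-in used days 2, 3 and 4. The fit was tested on simulated data. Named are the 12 most abundant snoRNA genes, the 5 largest rises and falls called in each comparison (at least 1 CPM), the 3 smallest p-values among days, the U3 and U14 copies, and members of hosts with at least 4; orphans, Me genes and members of 2 families were added after their values were seen. Members, lists and tests were chosen with earlier results of these data known. DESeq2 1.42.0 and other scalings, filters and omissions were alternatives. P-values measure the spread between libraries labelled as independent biological replicates.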

Additional observations from a re-analysis of the deposited data

Results flagged for a closer look

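In 37 values tested for a library standing apart among the 7 young libraries with spike-in (members with at least 50 counts there, and the summed level), 3 had such a library, where chance gives about 1 in 20. Of these, 2 were low in day 3 replicate 3: snoRNA:Or-aca5 at 158 CPM beside a median of 263 CPM, and snoRNA:Psi28S-1192a, a pseudouridine guide gene in RpS5a, at 35.3 CPM beside a median of 73.5 CPM. That library also had the lowest summed snoRNA level of its group, 1439 CPM. snoRNA:Psi28S-1135f, also a guide gene in RpS5a, was high in day 1 replicate 1, at 53.1 CPM beside a median of 22.6 CPM. The members' median age contrast took opposite signs against the 2 kinds of young library. An edgeR quasi-likelihood test of the difference between these contrasts was added after the data were seen. It called 62 of 87 snoRNA genes (Benjamini-Hochberg adjusted p under 0.05). All 62 had the lower value against the libraries with spike-in, as did 1067 called genes among all 8024. The later libraries enter both contrasts alike and cancel in this difference. The test therefore compares the 2 kinds of young library, apart from the weight given to day 1. It nearly repeats the comparison between them given above and is no separate result on age.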

How the results depend on the processing

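With each of the 22 libraries left out in turn, 39 to 66 members were called on days 5 to 8 against young libraries with spike-in, 11 to 27 against those without, 45 to 62 between the kinds of young library, and 0 in both tests among days. In these fits the filter was applied anew, and 84 to 103 members were tested. With no library kind term 40 of 87 fell on days 5 to 8. Days 2 to 4 then average both kinds of young library, so this is not the same comparison. With no filter on low counts, where 237 members are tested, 7 passed among days 5 to 8 and 1 among days 1 to 4. The other alternatives kept each count within 1.5 times. Replicate numbers did not pair libraries (the lowest of 71 correlations of same-numbered residuals was -0.696, the median 0.063); with the replicate number as a block 66, 28 and 62 members were called in the 3 comparisons. Among named members, 39, 20 and 34 were called in these; 15, 10 and 3 lost the call under some alternative and 0 reversed. The comparisons with or between young libraries without spike-in could not be fitted when those 3 libraries were left out or with no term for kind, and a fit of 1 age series gives no comparison between series. Medians of the summed level moved by less than the spread between libraries under other scalings. In the young libraries with spike-in 3 reads are 1.17 CPM or more, which limits the low members.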
